A study of Mus musculus with 4 samples.

Results

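To describe where N6-methyladenosine (m6A) was found on transcripts of the AKT, GSK3 and FOXO genes in mouse natural killer (NK) cells, 9 genes were read out of a list of m6A peaks. The genes were Akt1, Akt2, Pdpk1, Gsk3a, Gsk3b, Foxo1, Foxo3, Foxo4 and Phlpp1. A peak was taken where its gene identifier in the list was the mouse Ensembl gene of one of these symbols, and the rule itself uses no measured value. This gave 22 of 20727 distinct peaks, in 8 of the 9 genes. Akt2, Gsk3b and Foxo3 had 4 peaks each, Foxo1 had 3, Akt1, Gsk3a and Foxo4 had 2 each and Pdpk1 had 1. Phlpp1 had 0 peaks. Any peak at all was listed for 46.3% of the protein-coding genes of the annotation.

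The libraries came from splenic NK cells of C57BL/6 mice, 2 from RNA pulled down with an antibody against m6A and 2 from input RNA that was not pulled down. All of them hold poly(A) RNA that had been cut into short fragments. The study describes NK cells that were expanded in the animals by an IL-15 expression plasmid and then sorted, so both groups share the high IL-15 exposure, and no genotype or treatment separates them. The only contrast is immunoprecipitate against input, and the list gives 1 fold enrichment and 1 p-value per peak over all libraries. There is therefore no error between replicates, the depth of each library is unknown, and the values are described without tests. A peak was listed for 8 of 8 NK cell marker genes looked up, and also for 3 of 5 T cell, 3 of 4 B cell and 5 of 5 myeloid marker genes. The T cell genes with a peak were the CD3 chain genes Cd3e, Cd3d and Cd3g, while Cd4 and Cd8a had none. The B cell genes with a peak were Cd79a, Cd79b and Pax5, while Ms4a1 had none. The myeloid genes with a peak were Lyz2, Csf1r, Adgre1, S100a8 and Itgam. Itgam encodes CD11b, which the study uses to stage NK cells, so its peak does not separate myeloid from NK cells. This holds for Itgam only, and the counts do not measure the share of other cells. A peak shows that RNA of the gene was recovered, not how much of it there was, and the part of RNA from other cell types in these peaks was not tested.

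AKT is a serine/threonine kinase at the centre of signalling by phosphoinositide 3-kinase (PI3K), which IL-15 and other cytokines switch on in lymphocytes. PI3K makes a membrane lipid that recruits AKT and its activator PDK1, the product of Pdpk1, and PHLPP1 removes an activating phosphate from AKT again. Active AKT inhibits the GSK3 kinases by phosphorylating them near the N terminus, and it phosphorylates FOXO transcription factors so that they leave the nucleus. FOXO1 and FOXO3 are known to hold back the maturation of NK cells. The mark m6A is written by the METTL3-METTL14 complex at DRACH sequences (where D stands for any base but C, R for a purine and H for any base but G, and the A before the C is the methylated base), often near stop codons and in 3′ UTRs, and reader proteins of the YTH family act on the stability and translation of marked mRNA.

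One DRACH site of each of 13 member peaks is printed here to place the peaks on actual sequence. The site chosen was the one nearest the centre of the peak, taking GGACT first, then GGAC followed by A or C, then any other DRACH. Each window has 25 nt on the strand of the gene, 5′ to 3′, with the DRACH site in capitals. The peaks are wider than the windows, so which adenosine of a peak was methylated is not resolved, and a match to the motif is not a measured site. The first 8 windows are in 3′ UTRs, for Akt1 at chr12:112654396-112654420 (minus strand), Akt2 at chr7:27638341-27638365 (plus), Gsk3a at chr7:25228597-25228621 (minus), Gsk3b at chr16:38244077-38244101 and chr16:38245174-38245198 (plus), Foxo1 at chr3:52349953-52349977 (plus), Foxo3 at chr10:42182639-42182663 (minus) and Foxo4 at chrX:101260565-101260589 (plus). The coding windows are at chr7:25237594-25237618 for Gsk3a and chr10:42275105-42275129 for Foxo3, both on the minus strand. The windows in introns are at chr17:24106607-24106631 for Pdpk1 (minus), chr16:38208582-38208606 for Gsk3b (plus) and chr3:52284200-52284224 for Foxo1 (plus). All coordinates here are on GRCm38.
Akt1 3′ UTR: aaactattaaGGACTgacgcgacca
Akt2 3′ UTR: tgagcgctggGGACCgcccagggac
Gsk3a 3′ UTR: gggggtgtgaGGACCttctaccccc
Gsk3b 3′ UTR, proximal peak: ggctgcgagtGGACTctgagcccgt
Gsk3b 3′ UTR, distal peak: tatatataaaGGACTgtgggttgta
Foxo1 3′ UTR: ccaccacagcGGACTtgagtaacag
Foxo3 3′ UTR: ctgtcaaacaGGACTagagaaagat
Foxo4 3′ UTR: ctgtggagagGAACAgggaagggag
Gsk3a coding: ggccgggcgcGGACCagctcgttcg
Foxo3 coding: caggagggcaGGACCtcgggtcggg
Pdpk1 intron: tatacttaatGGACTgttgttttag
Gsk3b intron: cttccaccctGGACTgtgttatgag
Foxo1 intron: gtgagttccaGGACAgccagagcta

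**Figure D1:**
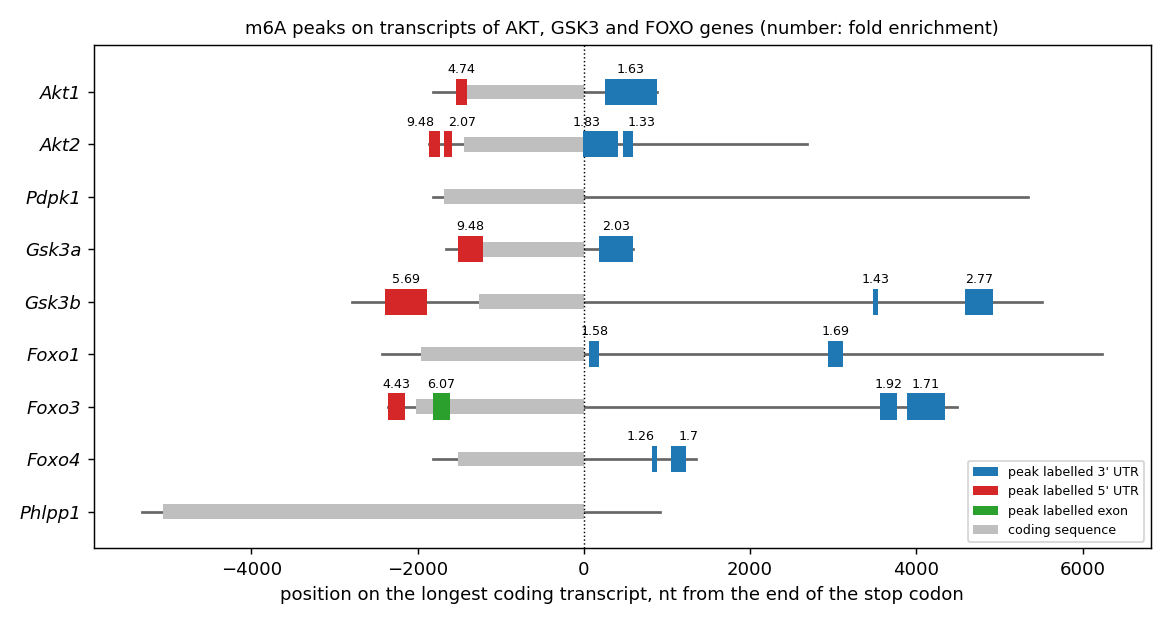
Peaks on the longest coding transcript of each gene, with the position in nt from the end of the stop codon on the horizontal axis and 1 gene per line. Lines are the transcripts, grey boxes the coding sequence and coloured boxes the peaks by the authors' label, with their fold enrichment above them; the peaks of Pdpk1, Gsk3b and Foxo1 that touched no exon of a coding isoform are not drawn, and Phlpp1 had 0 peaks.

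Of the 22 peaks, the authors' annotation labelled 12 as 3′ UTR, 6 as 5′ UTR and 4 as exon. Fold enrichment, the ratio of immunoprecipitate to input reads in a peak, was at least 5 in 7 peaks, against 34.6% of peaks in the whole list. The p-value given by the peak caller was under 0.001 in 14 of the 22, against 61.5% in the list. Strong is used here for peaks enriched at least 5-fold, whatever their p-value. Strong peaks were found in 6 of the 8 genes with a peak, namely Akt2, Pdpk1, Gsk3a, Gsk3b, Foxo1 and Foxo3. Among all genes with a peak the share with a strong peak was 49.6%, and among protein-coding ones it was 43.4%. These shares are not alike in peak number, since a gene with more peaks has more chances of a strong one. Member genes with a peak had 2.75 peaks each on average, against 1.79 in all protein-coding genes with a peak. Per peak, the members had 7 strong ones of 22, against 34.6% in the list. The strong peaks of Pdpk1 and Foxo1 touched no coding exon, so with only peaks on a coding isoform 4 of 7 member genes had a strong one (38.7% of protein-coding genes). With only peaks at a p-value under 0.001 it was 4 of 8 (35.0%). The fold enrichments nearest to the threshold were 5.69 at Gsk3b above it and 4.74 at Akt1 below it. The strong peaks were of different kinds, since 3 were labelled 5′ UTR, 4 were labelled exon and 0 were labelled 3′ UTR.

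Akt1 and Akt2 each carried m6A peaks at each end of the mRNA. Akt1 (ENSMUSG00000001729, chromosome 12, 112653821 to 112674884, minus strand), which encodes the AKT isoform found in most tissues, had a peak at its start codon and another that filled most of its 3′ UTR. The first ran from 112671526 to 112673726, a span of 2201 nt. Only 150 nt of it were exonic over all coding isoforms, and 129 nt on the longest coding transcript. This exonic stretch, in exon 2, began 93 nt before the start codon and covered codons 1 to 12. The peak was enriched 4.74-fold (log10 p of -2.28), and 25 other peaks of the list had exactly the same pair of values. The second peak lay in the last exon, exon 14, from 112653821 to 112654449. It began 249 nt past the stop codon and ended at the last annotated base of the transcript, 877 nt past it. Its fold enrichment was only 1.63, yet its log10 p of -37.7 was the most significant among the 22 peaks and exceeded 92.4% of the list. The 629 nt of the peak held 9 DRACH sites, of which 1 was GGACT, the site shown above, with its adenosine 290 nt past the stop codon. Only 1 of the 4 coding isoforms of Akt1 contained any of this peak, whereas the start codon peak touched all 4.

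Akt2 (ENSMUSG00000004056, chromosome 7, 27591552 to 27640826, plus strand) encodes the isoform best known for insulin-dependent glucose uptake. It had a pair of peaks in exon 1, within the 5′ UTR, and a pair at the beginning of the 3′ UTR. The first, at 27591552 to 27591672, started at the first base of the transcript and was enriched 9.48-fold (log10 p of -2.59). The second, at 27591732 to 27591822, was enriched 2.07-fold (log10 p of -2.74). These 5′ peaks thus differed in fold but hardly in significance, and they were present in 1 and 2 of the 11 coding isoforms. The third peak, at 27638130 to 27638549, was the only member peak that reached a stop codon. It covered codons 479 to 481 and continued to 408 nt past the stop codon, and was enriched 1.83-fold (log10 p of -16.1). It held 6 DRACH sites and 4 copies of the core GGAC, which is counted with any following base. The fourth, at 27638609 to 27638729, was enriched 1.33-fold (log10 p of -6.95). Neither the first nor the fourth peak, each 121 nt long, contained a DRACH site.

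Upstream of AKT, the single peak of Pdpk1 lay outside the spliced mRNA. Pdpk1 (ENSMUSG00000024122, chromosome 17, 24073680 to 24150924, minus strand) encodes PDK1, the kinase that phosphorylates the activation loop of AKT, and is not to be confused with Pdk1, the mouse symbol of a pyruvate dehydrogenase kinase. The peak, at 24104608 to 24106825, had the highest fold enrichment among the members, 45.5, above 94.4% of the list, with a log10 p of -9.90. The peak covered 0 nt of the 8 coding isoforms. It lay in intron 4 of the longest one, an intron of 5080 nt, starting 1 nt past the upstream exon, and the authors' exon label refers to a transcript annotated as a retained intron. The 2218 nt held 36 DRACH sites, or 16.2 per kb. The log10 p of -9.90 was also the weakest among all peaks of this fold or higher, and 33 other peaks shared both values. The spliced Pdpk1 mRNA had 0 peaks, although its transcript of 7161 nt holds 129 DRACH sites, 99 of them in the 3′ UTR.

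Phlpp1 (chromosome 1, 106171752 to 106394250, plus strand), the phosphatase gene, had 0 peaks under its own identifier, and 0 peaks of other genes lay within its span. Its longest coding transcript of 6226 nt held 128 DRACH sites, or 20.6 per kb, a density within the range of 14.2 to 22.6 per kb among the 8 genes with a peak. An unlisted gene can be unmethylated or too lowly expressed for a peak, and without counts these cannot be told apart.

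Both GSK3 kinase genes had strong peaks, in different parts of the transcript. Gsk3a (ENSMUSG00000057177, chromosome 7, 25228258 to 25237851, minus strand) encodes GSK3α. Its first peak, at 25237403 to 25237702 in exon 1, began 42 nt before the start codon and covered codons 1 to 86, the stretch that encodes the serine phosphorylated by AKT. With 258 of 300 nt in the coding sequence, its centre was coding although the label was 5′ UTR. The fold enrichment was 9.48 and the log10 p was -7.24, the most significant of the 6 member peaks labelled 5′ UTR. This peak had a GC content of 80.0%, the highest among the members, and held 1 DRACH site. The second peak, at 25228258 to 25228676 in exon 11, ran from 178 nt past the stop codon to the last annotated base, 596 nt past it. Here the fold enrichment was 2.03 and the log10 p was -33.8, more significant than 91.6% of the list, with 5 DRACH sites. Both peaks touched both coding isoforms, so at Gsk3a neither depends on the choice of transcript.

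Gsk3b (ENSMUSG00000022812, chromosome 16, 38089001 to 38246084, plus strand) encodes GSK3β, the isoform best known from the complex that degrades β-catenin. Its peaks were spread over the 5′ UTR, an intron and the far 3′ UTR. The 5′ UTR peak, at 38089391 to 38089900, spanned positions -1135 to -626 relative to the start codon, and was enriched 5.69-fold (log10 p of -3.89). The intronic peak, at 38208295 to 38209464, was enriched 26.6-fold (log10 p of -34.6). It was thus the only member peak that was high on both measures, above 90.7% of the list in fold and 91.8% in significance. Among the 95 peaks of the list with this fold, log10 p ran from -5.48 to -34.6, so that the Gsk3b peak was the most significant of them. It covered 0 nt of the 3 coding isoforms and lay in intron 8, which has 11881 nt, beginning 204 nt past the upstream exon, in a transcript annotated as a retained intron. It held 27 DRACH sites, or 23.1 per kb, including 4 GGACT. In the 3′ UTR a peak of 61 nt at 38244046 to 38244106 was enriched 1.43-fold (log10 p of -1.3), the weakest p-value found in the list. The other, at 38245155 to 38245485, was enriched 2.77-fold (log10 p of -22.2). This distal peak was centred 4751 nt past the stop codon, the farthest among the members, and 9 DRACH sites in its 331 nt gave 27.2 per kb at a GC content of 30.5%.

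**Figure D2:**
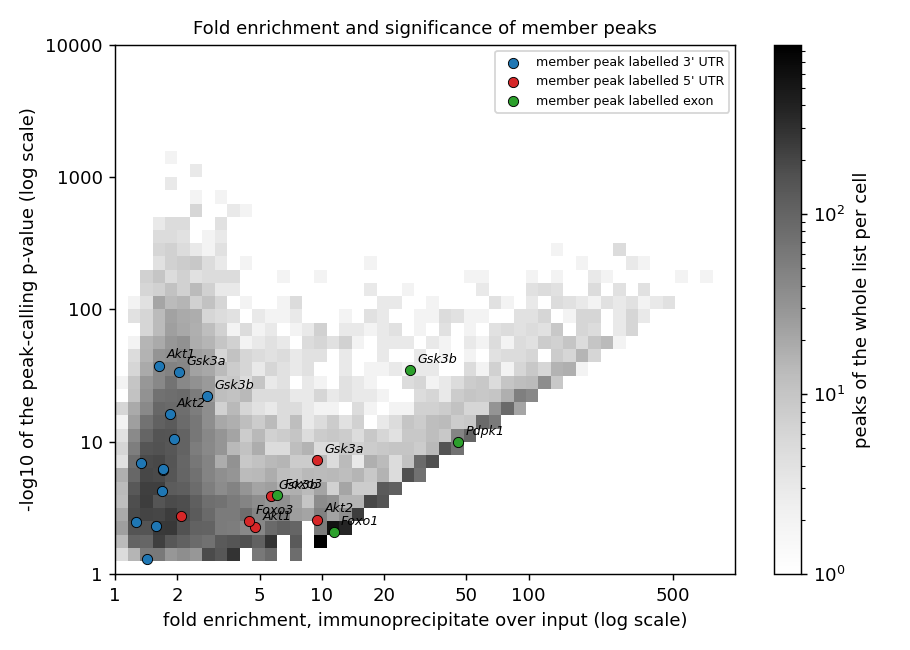
Fold enrichment on the horizontal axis and minus log10 of the peak-calling p-value on the vertical axis, both logarithmic, with the 22 member peaks as coloured points by label and the number of peaks of the whole list in each grey cell. The points labelled 3′ UTR lie left of a fold of 3 and reach a minus log10 p near that of Akt1, while the points of Pdpk1 and Foxo1 lie on the lower edge of the grey cells and the intronic Gsk3b point lies well above it.

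The FOXO genes had 9 peaks in all, of which 2 were strong. Foxo1 (ENSMUSG00000044167, chromosome 3, 52268336 to 52353221, plus strand) encodes a transcription factor that induces genes of quiescence and homing in lymphocytes. Its strong peak, at 52284159 to 52284309, had a fold enrichment of 11.4 but a log10 p of -2.09, and 531 other peaks of the list carried exactly these values. No peak of this fold or higher had a weaker p-value. The peak covered 0 nt of Foxo1 exons and lay in intron 1, 14736 nt past exon 1, and its label names another annotated gene, Gm38034, on the same strand. It ended at the last base of Gm38034, so its assignment to Foxo1 is uncertain. The peaks of Foxo1 in exon 3 were modest on both measures. The one at 52347045 to 52347165 was centred 124 nt past the stop codon, and enriched 1.58-fold (log10 p of -2.30). The one at 52349923 to 52350103 was centred 3032 nt past it, enriched 1.69-fold (log10 p of -4.26), and held 5 DRACH sites in 181 nt, or 27.6 per kb.

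Foxo3 (ENSMUSG00000048756, chromosome 10, 42181841 to 42276755, minus strand) encodes a related factor that induces pro-apoptotic genes, and was the only FOXO gene with a peak inside its coding sequence. That peak, at 42275027 to 42275236 in exon 2, covered codons 66 to 136 and was enriched 6.07-fold (log10 p of -3.95). Its whole sequence on the gene strand is printed because it is the single member peak that was wholly coding. Of its 210 nt, 73.3% were G or C, and the capitals mark the only DRACH site.
Foxo3 coding peak: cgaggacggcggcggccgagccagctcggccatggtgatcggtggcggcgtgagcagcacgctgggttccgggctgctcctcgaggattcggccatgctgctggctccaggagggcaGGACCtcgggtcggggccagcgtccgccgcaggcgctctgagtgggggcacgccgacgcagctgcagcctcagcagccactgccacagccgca

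A further Foxo3 peak at the 5′ end of the transcript, 42276546 to 42276755, was enriched 4.43-fold (log10 p of -2.51). The remaining pair lay near the 3′ end. The peak at 42182559 to 42182769, centred 3667 nt past the stop codon, was enriched 1.92-fold (log10 p of -10.5). The peak at 42181991 to 42182439, centred 4116 nt past it, was enriched 1.71-fold (log10 p of -6.18) and ended 150 nt before the end of the transcript. Both 3′ peaks were thus close to the end of the 3′ UTR, with 81.7% and 91.7% of it before their centres, and only 1 of the 5 coding isoforms of Foxo3 contained them.

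Foxo4 (ENSMUSG00000042903, chromosome X, 101254528 to 101260873, plus strand), the FOXO gene on the X chromosome, had the lowest enrichment of the 8 genes. Its 61 nt peak at 101260337 to 101260397 was enriched 1.26-fold (log10 p of -2.49). The 180 nt peak at 101260575 to 101260754 was enriched 1.70-fold (log10 p of -6.27). Both lay in the 3′ UTR and held 1 DRACH site each, and neither contained GGACT. The 3 FOXO genes thus shared 3′ UTR peaks with fold enrichments under 2 and differed in what they carried upstream, which was an intronic peak at Foxo1, a 5′ UTR and a coding peak at Foxo3 and 0 peaks at Foxo4.

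A pattern that recurred across the members was a contrast between the ends of the mRNA. Akt1, Akt2, Gsk3a, Gsk3b and Foxo3 had both a peak labelled 5′ UTR and one labelled 3′ UTR, so 5 of the 8 genes, against 16.2% of protein-coding genes with a peak. Both labels need at least 2 peaks, which 7 of the 8 members had, against 46.7% of protein-coding genes with a peak, so these shares are not alike in peak number. Comparing the most significant peak of each label within a gene, the 5′ peak had the higher fold enrichment and the weaker p-value in 5 of 5 genes, against 46.5% of the 1645 genes of the list with both labels. The comparison was chosen after the values were seen, and the genes were not sampled at random. In fold the contrast was widest at Gsk3a, with 9.48 at the 5′ end and 2.03 at the 3′ end, and narrowest at Akt2, with 2.07 and 1.83. In log10 p it was widest at Akt1, with -2.28 and -37.7. Over all members, the 12 peaks labelled 3′ UTR had a median fold enrichment of 1.69 and a median log10 p of -6.61, while the 6 labelled 5′ UTR had medians of 5.21 and -2.67. In the whole list the corresponding medians were 2.0 and -4.83 for the 3′ UTR label and 5.91 and -4.18 for the 5′ UTR label, so fold differed between the ends in the same direction there.

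**Figure D3:**
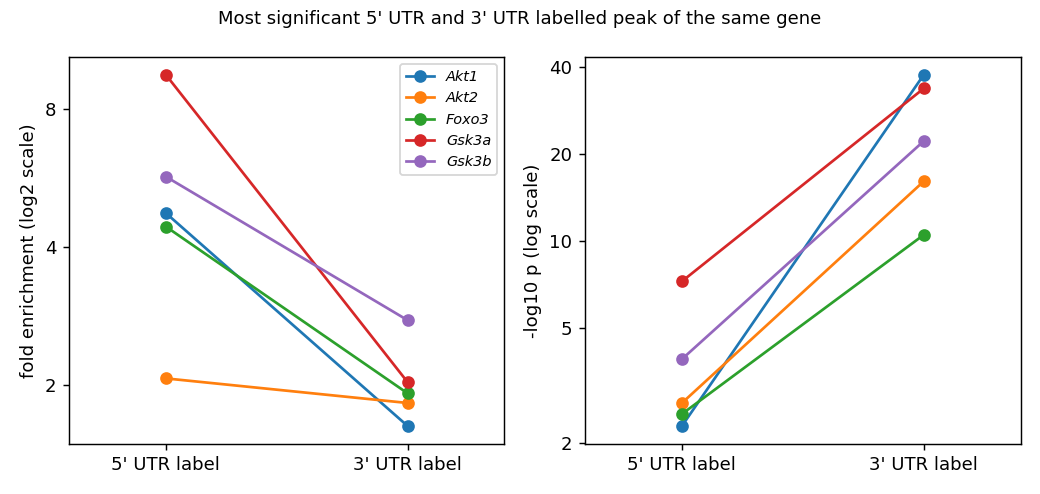
Fold enrichment (left, log2 axis) and minus log10 p (right, log axis) of the most significant peak labelled 5′ UTR and the most significant labelled 3′ UTR in each of the 5 genes that had both, 1 line per gene. All 5 lines fall from the 5′ to the 3′ peak in fold and rise in significance.

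On the transcripts, member peaks lay mostly in the 3′ UTR, at a share near that of the whole list, and few were centred near the stop codon. Of the 22 peaks, 19 could be placed on the longest coding transcript of their gene, with 12 centres in 3′ UTRs, 5 in 5′ UTRs and 2 in coding sequence. The 3′ UTR share in the whole list was 56.5%. Within 200 nt of the stop codon there were 2 of the 19 centres (10.5%), those of Akt2 at 198 nt and Foxo1 at 124 nt, against 22.3% in the list. With so few peaks placed, this difference rests on a few centres. The centres in 3′ UTRs were 124 to 4751 nt downstream of the stop codon, with a median of 994 nt, against a median of 716 nt in the list. Measured as a share of the 3′ UTR, the median centre lay 63.9% of the way along it, against 58.9% in the list. The peaks that touched no coding isoform, at Pdpk1, Gsk3b and Foxo1, were 3 of 22, against 9.85% of the peaks of protein-coding genes. These 3 had the highest fold enrichments of all member peaks, 45.5, 26.6 and 11.4.

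Motif content differed along the transcripts of the members. A DRACH site was present in 17 of the 19 placed peaks and the core GGAC in 11, against 90.0% and 54.5% of placed peaks in the list. Per length, the placed member peaks held 62 DRACH sites in 4752 nt, or 13.0 per kb, while the 8 transcripts they lie on held 19.2 per kb and the placed peaks of the list 20.2 per kb. The core GGAC occurred at 4.42 per kb in the member peaks, against 3.92 in their transcripts and 4.03 in the list. Member peaks were thus poorer in DRACH than their own transcripts but not poorer in GGAC. The difference in DRACH was larger at the 5′ end, with 9 sites in 1358 nt (6.63 per kb) under the 5′ UTR label and 52 sites in 3184 nt (16.3 per kb) under the 3′ UTR label, whereas in the list these densities were 19.8 and 20.7 per kb. GC content moved with it. Among the members it had a median of 67.4% under the 5′ UTR label and 51.2% under the 3′ UTR label, against 58.3% and 45.0% in the list. The part of GC content in these densities was not tested. The whole 5′ UTRs of the 5 genes with a peak labelled 5′ UTR also held few DRACH sites. There were 3 in 370 nt at Akt1, 3 in 413 nt at Akt2 and 2 in 191 nt at Gsk3a. Gsk3b had 14 in 1525 nt and Foxo3 had 3 in 339 nt. The density of the whole transcript is thus not that of this region, and a baseline per region was not computed.

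**Figure D4:**
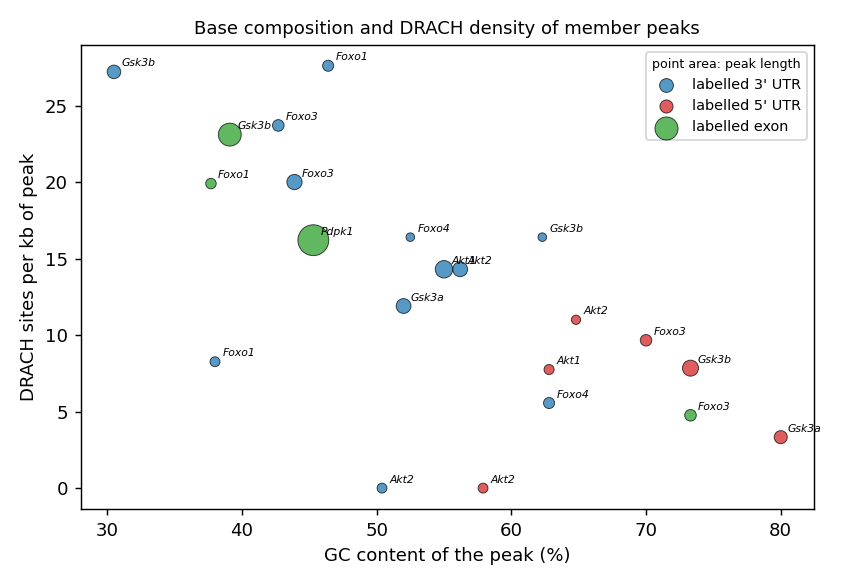
GC content of each of the 22 member peaks in percent on the horizontal axis and DRACH sites per kb on the vertical axis, coloured by label and with the area of a point growing with peak length. The peaks labelled 5′ UTR lie at a GC content of 57.9% or more, and the distal Gsk3b and both Foxo3 peaks of the 3′ UTR lie at the upper left. The 3′ UTR peaks of Foxo1 lie apart, at 27.6 per kb with a GC content of 46.4% and at 8.26 per kb with 38.0%. Short peaks hold few sites, so their densities are coarse.

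Foxo6 and Phlpp2, which are further genes of the FOXO and PHLPP families, had 0 peaks. Of 22 genes that feed into AKT or counteract it, such as the PI3K subunits, the lipid phosphatases and the subunits of mTORC2, 18 had a peak and 4 of these 18 a strong one. Ppp2ca, the catalytic subunit of a phosphatase that acts on AKT, had the highest fold enrichment of this group at 20.9, followed by Mapkap1, an mTORC2 subunit, at 15.2 and Pik3r1, the regulatory subunit of PI3K, at 11.4. These peaks of Mapkap1 and Pik3r1 covered 0 nt of a coding isoform, at a log10 p of -2.91 and -2.09. The Pik3r1 values were those of the intronic Foxo1 peak. The most significant peak was at Hsp90aa1, which encodes a chaperone that holds AKT stable, with a log10 p of -94.2 at a fold enrichment of 1.91, followed by Hsp90ab1, its paralog, at -51.5 and a fold of 1.23 and by Pik3r5, a regulatory PI3K subunit gene, at -28.4 and a fold of 1.8. Inpp4b, Mlst8, Tcl1 and Trib3 had 0 peaks. Most of the upstream genes thus carried a listed peak of modest fold, with a median highest fold enrichment per gene of 2.27, against 9.48 in the 8 member genes and 3.79 in all protein-coding genes with a peak. The member median rested in part on the intronic peaks, and with only peaks on a coding isoform it was 5.69, against 2.0 in the upstream genes and 3.1 in all protein-coding genes. A highest fold also depends on the number of peaks. Peaks per gene with a peak were 2.75 in the members, 2.61 in the upstream genes and 1.79 in all protein-coding genes.

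Downstream, 17 of 20 substrates and partners of AKT and GSK3 had a peak and 5 of the 17 a strong one, with a median highest fold enrichment of 2.45. Tsc1, which encodes a subunit of the complex that restrains mTORC1, reached 22.8, Ywhae, a 14-3-3 protein gene, 13.3 and Cdkn1b, a cell cycle inhibitor gene, 11.1. The most significant peak of the group was at Mcl1, an anti-apoptotic GSK3 substrate, with a log10 p of -80.5 at a fold enrichment of 1.99. Another peak of Cdkn1b reached -69.1 at a fold of 2.51, and Ywhaz, a further 14-3-3 gene, -48.6 at a fold of 2.0. Tsc2, Ctnnb1 and Axin1 had 0 peaks. Of 15 genes known as FOXO targets in lymphocytes, 10 had a peak and 1 of the 10 a strong one, with a median of 3.21. Ccnd2, a cyclin gene, reached 9.48, while Irs2 and Gadd45a shared the next fold, 3.79. This Ccnd2 peak covered 0 nt of a coding isoform, at a log10 p of -1.69, the weakest at its fold in the list. Klf2, a transcription factor gene of lymphocyte quiescence, had the most significant peak among the genes of these lists, with a log10 p of -630 at a fold enrichment of 2.37. Ccnd2 followed with a peak at -86.1 and a fold of 2.19, and Txnip, which restrains glucose uptake, at -55.3 and a fold of 1.7. For each gene named here for its significance, the most significant peak thus had a fold under 3, as at Akt1 and Gsk3a. This did not hold for every highly significant peak. Another peak of Mcl1 had a log10 p of -59.6 at a fold of 3.6. Among the members, the intronic Gsk3b peak had -34.6 at a fold of 26.6. S1pr1, Ccr7, Trib1, Pik3ip1 and Bcl6 had 0 peaks. A strong peak was found in 6 of 8 member genes, against 4 of 18, 5 of 17 and 1 of 10 genes of these lists. Rictor, whose highest fold was 1.95, is counted both among the upstream genes and among the FOXO targets. With only peaks on a coding isoform this became 4 of 7 members (57.1%), against 3 of 18 (16.7%), 4 of 17 (23.5%) and 0 of 10 (0.0%). The number of genes was then 4 among both members and substrates, though the share was higher among the members. At least 1 peak with a p-value under 0.001 was found in 16 of the 18, 15 of the 17 and 8 of the 10 genes of the lists and in 8 of the 8 member genes. Peaks per gene with a peak were 2.18 in the substrates and partners and 2.2 in the FOXO targets, against 2.75 in the members. The lists were chosen with results known, and a difference between them was not tested.

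**Figure D5:**
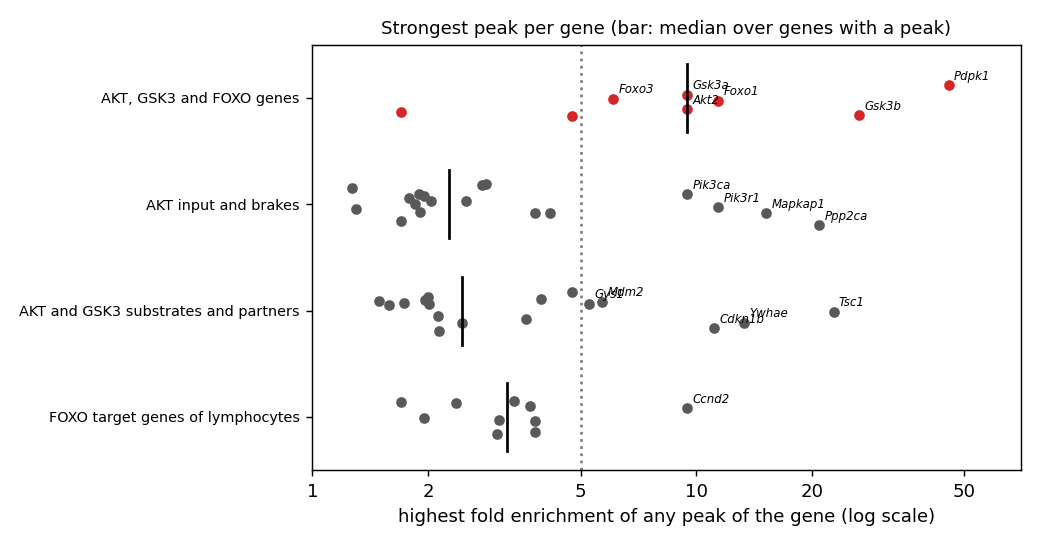
Highest fold enrichment of any peak of a gene (log axis), with 1 point for each gene with a peak in each list, the member genes in red and the genes of the 3 pathway lists in grey. Vertical bars are the medians of 9.48, 2.27, 2.45 and 3.21 from top to bottom, and the dotted line marks a fold of 5, right of which lie 6 member genes.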

How the data were processed

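MeRIP-seq was performed in 2 m6A immunoprecipitates and 2 inputs. According to the methods of the study and the submitters' processing notes, reads were trimmed, aligned with HISAT2 1.0 to GRCm38, peaks were called with exomePeak and annotated with ChIPseeker 1.0. The deposited fold enrichment is a ratio of immunoprecipitate to input reads made by the authors. The deposited significance is a score, the base-10 logarithm of the p-value from the peak caller, and whether it was adjusted is not given in the sources used here. Both are the authors' values over all libraries. How replicates were combined is not given, and 0 columns held values per sample, so totals per library and intervals could not be given.

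Of 20751 peaks listed, 24 were exact repeats and were dropped. Peaks were put on the longest coding transcript (by the centre of its exonic part; GENCODE M21, GRCm38), which was possible for 15721 of 20727. Spans include introns. DRACH and GGAC were counted on the gene strand, and overlapping matches were counted. Every member was described. For the pathway lists, the 3 genes with the highest fold, the 3 with the most significant peak and the genes with 0 peaks were named, and a few genes of the marker and pathway lists are not reported here. Python 3.11.15, pandas 2.3.3 and pysam 0.24.0 were used, and placement and motif counting were tested on simulated data. The members and lists were chosen with earlier results of these data known. Alternatives changed the fold and p-value thresholds, transcript overlap, placement, stop codon window and motif.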

Additional observations from a re-analysis of the deposited data

How the results depend on the processing

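The values were recomputed for 9 results under 27 alternatives, and 19 stayed within 1.5 times or within their interval. Of the 22 member peaks, 12 remained with a minimum fold of 2, 7 with a minimum of 5 and 14 with a p-value under 0.001. Genes with a strong peak fell from 6 to 3 when strong meant a fold of at least 10. The median highest fold per member gene went from 9.48 to 5.69 with only peaks on a coding isoform and to 3.95 with a p-value under 0.001, both added after seeing the data. The share of centres near the stop codon went from 10.5% to 0.0% with a window of 100 nt. Motif density went from 13.0 to 4.42 per kb when GGAC replaced DRACH, which allows more sequences. At least 7 of the 9 genes kept a peak under each alternative tried for that count. No paired analysis was possible because the list gives no value per sample, and leaving out a replicate was not run for the same reason. The depth behind a peak is unknown. High folds recur in the list, with 1024 peaks at 9.48, 648 at 11.4 and 44 at 45.5, and read counts behind them were not used here.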
